A study of Mus musculus with 12 samples.

Results

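The comparison set sorted leukemia cells gated as positive for the myeloid surface integrin Mac1 against cells of the same line gated as negative for it. All 12 libraries of the study entered it, 6 Mac1+ (3 of P9 and 3 of P10) against 6 Mac1- (3 of P11 and 3 of P12). The cells were of ML23, a murine acute myeloid leukemia line made from cells of transgenic rtTA mice (Jax strain 6965) with lentiviruses that overexpress Meis1, HoxA9 and HoxB5. The line was passaged in C57BL/6 mice and carries the reporter ZsGreen, so every group shares these transgenes and the ZsGreen+ gate. By the study's gates P9 was CD9+ cKit+ Mac1+ CD48-, P10 was CD9- cKit+ Mac1+ CD48+, P11 was CD9- cKit+ Mac1- CD48+, and P12 was CD9- cKit- Mac1- CD48+. Elsewhere the study describes P11 as negative or low for Mac1. The cells came from 3 diseased mice, so libraries of different sub-populations may share a mouse. The labels name the sub-populations P9 to P12 only, and give neither ages nor which libraries came from the same mouse. Each library was made from 100 sorted cells. ML23 is 1 line, and its Mac1+ cells are leukemia cells rather than normal neutrophils or monocytes. P-values here measure the spread between libraries of this line.

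Mac1 is the heterodimer of the integrin chains αM (Itgam) and β2 (Itgb2), which binds complement fragments, ICAM-1 and fibrinogen. It appears as myeloid progenitors turn into neutrophils and monocytes and is used as a marker of that step. In normal marrow the same step comes with loss of progenitor genes and of cell division, and with granule proteins, chemoattractant receptors and the phagocyte oxidase made in a fixed order, primary granules before secondary and tertiary granules.

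Values are CPM, read counts scaled to the total of their library, and they are not corrected for gene length, so levels were compared between libraries and not between genes. Depth was estimated from the spacing of low values. By this estimate the libraries held 13441944 to 21307423 alignments, so 1 alignment was worth 0.0469 to 0.0744 CPM. The study states a lower range of reads per sample, and the difference was not resolved. Differences are differences of mean log2(CPM + 0.5), which understate the change of genes at a few CPM. Each is the mean of the group means of P9 and P10 minus the mean of those of P11 and P12. A gene was called when its adjusted p was under 0.1 and its difference was more than 2-fold, the thresholds the study used. It was called shared when, in addition, all 6 Mac1+ libraries lay beyond all 6 Mac1- libraries. That second condition chose genes on the values described below and is a description, not a further test. These are bulk libraries, in which fewer cells of a kind and less RNA per cell cannot be told apart.

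The libraries of one sub-population were not equally alike. P12 replicate 3 lay nearer to the Mac1+ libraries than the other Mac1- libraries did. It was the closest Mac1- library for 311 of the 498 shared higher genes (62.4%) and for 1367 of the 2254 shared lower genes (60.6%). Without it 639 genes were shared higher and 2742 shared lower, of which 495 and 2238 were among the genes shared with it. P10 replicate 3 held several times more mRNA of some neutrophil granule genes, such as Ngp and Ltf, than the other P10 libraries, but not of others, such as Mmp8. P11 replicate 3 held 65.1 CPM of the granule gene Camp, against 7.18 and 8.61 CPM in the other P11 libraries. It held less Ltf and Mmp8 than they did. Camp was picked after its values were seen. P9 libraries were dominated by few genes, with 17.3% to 18.7% of the CPM of a library in its 10 highest genes, against 5.48% to 7.65% in the other 9. The 13450 genes tested were, at the median, 0.52 lower on the log2 scale in Mac1+. With libraries scaled instead on the median ratio of well expressed genes, this became a fall of 0.25 (log2 −0.25), a shift of 0.26 (log2).

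The sort markers were read first, as a check of the gates. Itgam measured 2666, 2735 and 2617 CPM in the P9 libraries, 1108, 1114 and 1329.8 CPM in those of P10, 124, 134 and 183 CPM in those of P11 and 139, 130.0 and 538 CPM in those of P12. Itgb2 measured 2381, 2272 and 1943 CPM in the P9 libraries, 1088, 1215 and 1272 CPM in those of P10, 289, 279.9 and 422 CPM in those of P11 and 257, 258 and 642 CPM in those of P12. Both Mac1 chains were thus higher in every library sorted as Mac1+, and since the gate was set on this protein the difference is no finding. P12 replicate 3 had more of both than any other Mac1- library. Kit, which encodes cKit, measured 67.0, 50.3 and 46.4 CPM in the P9 libraries, 8.44, 8.07 and 21.5 CPM in those of P10, 54.8, 45.3 and 89.5 CPM in those of P11 and 5.73, 4.45 and 5.38 CPM in those of P12. Kit mRNA was low in P10, although P10 was sorted as cKit+, and its Mac1 difference of 0.45 (adjusted p = 0.102 in limma) was not called. Cd9 was at 223 to 301 CPM in P9 and at 1.26 to 8.45 CPM in P10, and Cd48 was at 3.19 to 4.32 CPM in P9 and at 96.3 to 103 CPM in P10. Cd9 and Cd48 followed the gates that part P9 from P10, while Kit differed between them although both were gated as cKit+. None of these 3 genes was shared by both Mac1+ sub-populations.

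**Figure D1:**
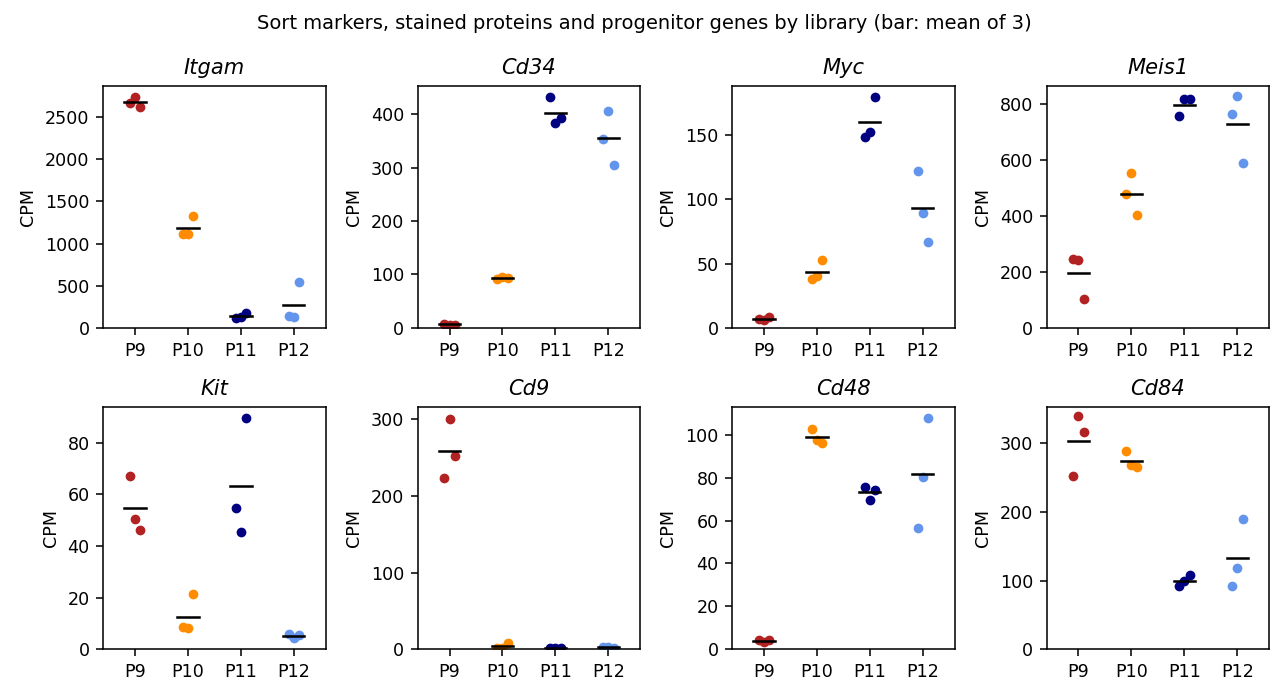
CPM of the sort marker genes Itgam, Kit, Cd9 and Cd48, of Cd34 and Cd84, whose proteins the study also stained, and of Myc and Meis1. Each point is 1 library, each bar the mean of the 3 libraries of a sub-population. Itgam and Cd84 sit higher in both Mac1+ sub-populations and Cd34, Myc and Meis1 lower, while Kit, Cd9 and Cd48 part P9 from P10. P12 replicate 3 is the point at 538 CPM of Itgam.

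Across the 13450 genes tested, 1079 were called higher in Mac1+ (8.02%) and 3895 lower (29.0%), together 4974 (37.0%). Of these, 498 were shared higher (3.70% of the genes tested) and 2254 shared lower (16.8%), among them 450 and 2131 protein-coding genes. With no test asked for, the libraries of the gates did not overlap for 749 genes higher (5.57%) and 3173 genes lower (23.6%) in Mac1+. The split depended on the scaling. Higher genes were 21.7% of all calls as deposited and 35.9% after rescaling, when 803 genes were shared higher (5.97%) and 1384 shared lower (10.3%). All 498 shared higher genes were also shared after rescaling, and so were 1382 of the 2254 shared lower genes. The genes called but not shared were mostly held back by P10. Of 581 such higher genes the lowest Mac1+ library was a P10 library for 462, and of 1641 such lower genes the highest was a P10 library for 1585.

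P10 lay between P9 and the Mac1- groups for most shared genes. The mean CPM of P10 was between that of P9 and those of P11 and P12 in 420 of the 498 shared higher genes and in 2165 of the 2254 shared lower genes. Shared genes were chosen with every P10 library beyond Mac1-. The counts therefore say only that P9 lay further from Mac1- than P10 did. The median shared higher gene was 2.23 above Mac1- in P9 and 1.33 above it in P10, and the median shared lower gene was at −2.13 in P9 and −0.91 in P10, all on the log2 scale. P9 and P10 were compared with the same Mac1- libraries, so these values are not independent of each other. The direct comparison of P9 with P10 called 261 of the shared higher genes further up in P9 and 8 further up in P10. Over all genes that comparison called 8.33% higher and 34.1% lower in P9. It called 1414 of the shared lower genes further down in P9 and 1 further down in P10. Pair by pair, P9 was called higher than P11 in 11.2% of all genes and lower in 46.8%, and higher than P12 in 11.1% and lower in 43.2%. P10 was called higher than P11 in 7.52% and lower in 12.8%, and higher than P12 in 5.83% and lower in 6.25%. Between the Mac1- groups themselves 3 genes (0.0223%) were called, all higher in P11. Across the 4 pairs, 281 shared higher and 616 shared lower genes were called against both Mac1- groups in both Mac1+ groups.

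Promoter sequences are shown for a few shared genes, first those whose start is preceded by the letters of a binding site of PU.1 (Spi1), the ETS factor that drives many myeloid genes. RefSeq windows of GRCm38.p6, which run from 250 bases before to 50 after a gene's start, were found for 9131 of the 11351 tested protein-coding genes (80.4%). For the shared higher genes they were found for 358 of 450 (79.6%), under the 80% set for a comparison of groups, so that comparison is void and no share is given for the shared genes. The letters GAGGAAGT were searched on both strands, where the other strand reads ACTTCCTC. They occur in 3.40% of all windows. A match describes letters, not binding. In the next 5 stretches the capitals mark GAGGAAGT or ACTTCCTC upstream of integrin β2-like (Itgb2l), the Fc receptor Fcgr4, the Rac regulator Arhgap25, the immunoglobulin-like receptor Cd300ld and the neutrophil collagenase Mmp8, all shared higher. The shared lower named genes Prtn3 and Noc2l hold the same letters before their RefSeq starts, so these letters were not found in higher genes alone.
Itgb2l (chr16:96443615-96443734, minus strand): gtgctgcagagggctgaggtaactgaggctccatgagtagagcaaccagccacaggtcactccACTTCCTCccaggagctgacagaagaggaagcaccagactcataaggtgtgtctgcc
Fcgr4 (chr1:171018806-171018925, plus strand): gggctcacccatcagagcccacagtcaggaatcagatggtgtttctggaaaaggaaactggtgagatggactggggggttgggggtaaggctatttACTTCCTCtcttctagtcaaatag
Arhgap25 (chr6:87533260-87533379, minus strand): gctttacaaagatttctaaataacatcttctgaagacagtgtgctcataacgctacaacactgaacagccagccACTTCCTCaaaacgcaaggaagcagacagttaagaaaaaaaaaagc
Cd300ld (chr11:114989967-114990086, minus strand): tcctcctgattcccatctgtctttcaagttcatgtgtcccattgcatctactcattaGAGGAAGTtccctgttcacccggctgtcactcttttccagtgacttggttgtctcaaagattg
Mmp8 (chr9:7558179-7558298, plus strand): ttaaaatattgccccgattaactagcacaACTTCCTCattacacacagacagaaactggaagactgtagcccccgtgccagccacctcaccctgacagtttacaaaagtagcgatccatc

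The first motif base lies 57, 24, 46, 143 and 221 bases before the RefSeq start of these genes in the order shown. The sixth stretch is from Il1rn, the interleukin-1 receptor antagonist, where capitals mark the AP-1 site TGACTCA, or TGAGTCA on the other strand. These letters begin 141 bases before the start and occur in 3.54% of all windows.
Il1rn (chr2:24336660-24336779, plus strand): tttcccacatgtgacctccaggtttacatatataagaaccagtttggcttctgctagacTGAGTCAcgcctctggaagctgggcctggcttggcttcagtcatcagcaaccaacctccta

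Shared higher genes also differed among themselves in the number of CG pairs at their starts, and 5 stretches of 150 bases before the start are printed with every CG pair in capitals. The median over all windows of 300 bases is 21 pairs. The windows of Fpr1, a formyl peptide receptor, and Ltf, lactoferrin, hold 1 and 4 pairs, and that of the shared higher Mxd1, a repressor that competes with Myc for Max, holds 39. For comparison the shared lower genes Nop56 and Gnl3, which serve in the nucleolus, have 32 and 44 pairs. Shared lower genes differed too, as the windows of Cd34, Ctsg and Mcm3 hold 7, 8 and 8 pairs. The examples describe single genes and neither group.
Fpr1 (chr17:17883940-17884089, minus strand): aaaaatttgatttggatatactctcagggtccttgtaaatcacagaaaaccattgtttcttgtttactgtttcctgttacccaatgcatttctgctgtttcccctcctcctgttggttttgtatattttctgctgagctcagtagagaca
Ltf (chr9:111019142-111019291, plus strand): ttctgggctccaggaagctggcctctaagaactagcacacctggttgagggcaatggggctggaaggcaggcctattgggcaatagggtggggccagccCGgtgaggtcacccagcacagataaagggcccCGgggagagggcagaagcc
Mxd1 (chr6:86669160-86669309, minus strand): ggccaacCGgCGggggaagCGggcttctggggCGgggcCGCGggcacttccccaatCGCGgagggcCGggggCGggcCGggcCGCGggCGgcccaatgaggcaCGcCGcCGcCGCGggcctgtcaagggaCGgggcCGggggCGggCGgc
Nop56 (chr2:130274262-130274411, plus strand): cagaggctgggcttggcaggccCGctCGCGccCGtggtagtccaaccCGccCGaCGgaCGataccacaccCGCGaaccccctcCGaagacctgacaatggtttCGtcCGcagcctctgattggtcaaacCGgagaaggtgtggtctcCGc
Gnl3 (chr14:31019132-31019281, minus strand): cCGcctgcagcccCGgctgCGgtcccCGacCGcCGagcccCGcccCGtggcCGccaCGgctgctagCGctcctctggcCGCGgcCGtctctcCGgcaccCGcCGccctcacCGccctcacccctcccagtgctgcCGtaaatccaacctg

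The genes most widely separated between the gates were ranked by the smallest of the 4 differences between a Mac1+ and a Mac1- sub-population. First among the higher genes was Thbs1 (chr2:118111876-118127133, mm10), which encodes the secreted matrix glycoprotein thrombospondin-1. It measured 3147, 2949 and 2118 CPM in the P9 libraries, 249, 264 and 233 CPM in those of P10, 9.66, 10.4 and 13.0 CPM in those of P11 and 13.5, 11.3 and 31.4 CPM in those of P12, a log2 difference of 5.86 (SE 0.20, adjusted p = 1.09e-09). Even the lowest P10 library was several times above P12 replicate 3, the highest Mac1- library. C5ar1, the receptor for the complement fragment C5a, measured 434, 427 and 362 CPM in the P9 libraries, 48.3, 55.2 and 46.2 CPM in those of P10, 2.98, 1.97 and 2.24 CPM in those of P11 and 2.90, 1.80 and 6.02 CPM in those of P12, a log2 difference of 5.46 (SE 0.21, adjusted p = 1.71e-09). Fpr2, a receptor for formylated bacterial peptides, measured 271, 290.4 and 298 CPM in the P9 libraries, 85.5, 82.9 and 72.8 CPM in those of P10, 1.55, 1.69 and 2.24 CPM in those of P11 and 4.54, 2.81 and 12.8 CPM in those of P12, a log2 difference of 5.35 (SE 0.25, adjusted p = 8.58e-09). For these 3 genes no Mac1+ library came near the Mac1- range, and P9 stood above P10. Fgr, a Src-family kinase that acts behind integrins and Fc receptors, measured 371, 334 and 270.0 CPM in the P9 libraries, 142, 147 and 167 CPM in those of P10, 9.78, 6.42 and 14.1 CPM in those of P11 and 8.63, 6.75 and 34.0 CPM in those of P12, a log2 difference of 4.26 (SE 0.32, adjusted p = 1.34e-07). Its levels in P9 and P10 were closer to each other.

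Not all genes at the top of this ranking were graded from P10 to P9. Bst1, the ectoenzyme CD157, measured 33.0, 49.1 and 46.3 CPM in the P9 libraries, 54.6, 59.4 and 41.9 CPM in those of P10, 2.54, 2.53 and 2.69 CPM in those of P11 and 2.08, 2.31 and 10.7 CPM in those of P12, a log2 difference of 3.69 (SE 0.30, adjusted p = 3.03e-07). P9 and P10 overlapped, and the 5 Mac1- libraries other than P12 replicate 3 were at or under 2.69 CPM. Treml4, a receptor of the TREM family, was at 23.3 to 31.2 CPM in P9, 13.0 to 21.8 CPM in P10 and 0.372 to 1.46 CPM in Mac1-. Trib1, a pseudokinase that directs C/EBPα to degradation, was at 64.5 to 84.0 CPM in P9, 11.2 to 20.1 CPM in P10 and 0.338 to 2.84 CPM in Mac1-. Both were near 1 CPM in Mac1-, where few alignments carry the value. Plbd1, a phospholipase B-like granule protein, had a difference of 5.24, and Ifitm6, of the interferon-induced transmembrane family, one of 4.93.

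**Figure D2:**
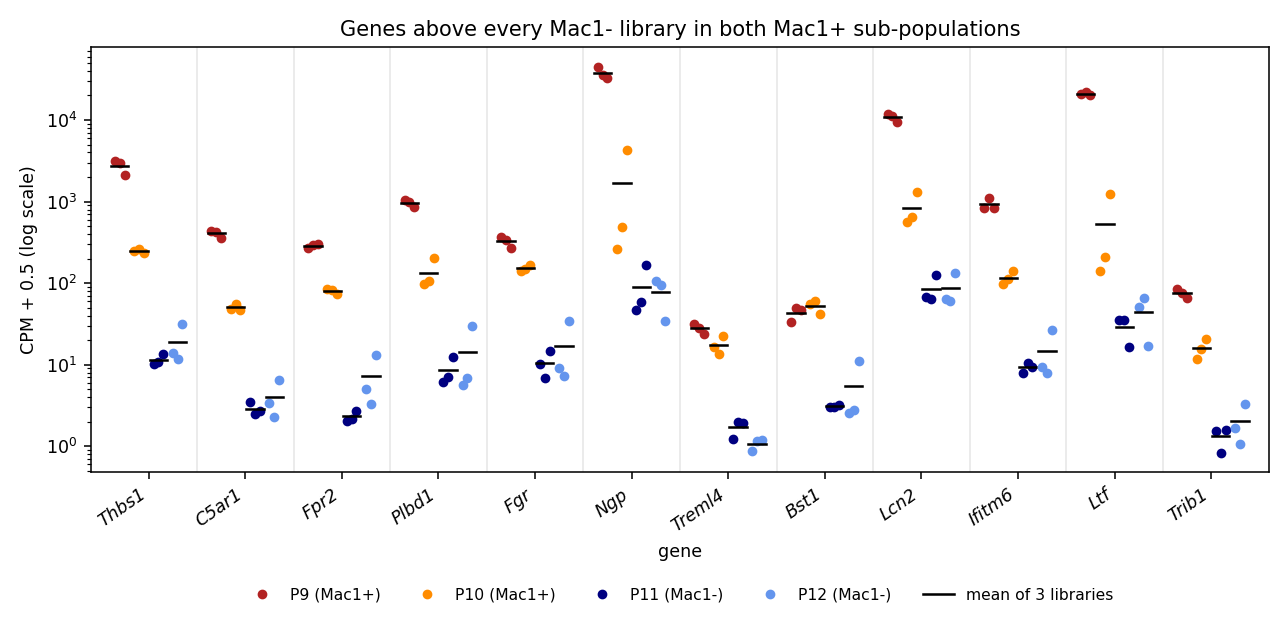
CPM + 0.5 on a log axis for the 12 protein-coding genes with the widest smallest gap among shared higher genes. Points are single libraries, bars the mean of 3. All 6 Mac1+ points of each gene lie above all 6 Mac1- points. P12 replicate 3 is the highest Mac1- point for most genes, and P10 replicate 3 is the highest P10 point for Ngp, at 4331 CPM, and Ltf, at 1224 CPM.

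Adhesion genes beyond the sorted integrin moved in part. Of 22 adhesion and integrin signalling genes tested, 7 were called higher and all 7 were shared, the sorted Itgam and Itgb2 among them, with a list median of 0.77 against −0.52 over all genes. Beside this list and those below, 8.02% of all genes were called higher and 29.0% lower. The shared ones were 3.70% higher and 16.8% lower. Itgb2l, the β2-like integrin chain, measured 939, 918 and 715 CPM in the P9 libraries, 5.10, 8.59 and 34.7 CPM in those of P10, 1.82, 0.957 and 0.547 CPM in those of P11 and 1.93, 3.04 and 0.463 CPM in those of P12, a log2 difference of 5.86 (SE 0.42, adjusted p = 1.08e-07). P9 stood far above P10, and P10 replicate 3 was several times above the other P10 libraries. Itgax, which encodes integrin αX and lies next to Itgam, was low throughout and had a difference of 2.11. Itgal, which encodes integrin αL, had a difference of 0.76 and was not called. It and Itgax were picked after their values were seen.

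Chemoattractant receptors draw phagocytes to a target. Among 14 tested, 10 were called higher, 7 of them shared, and 2 lower, and the median was 2.00. Besides C5ar1 and Fpr2, the shared genes included Fpr1, at 334 to 401 CPM in P9, 3.67 to 6.10 CPM in P10 and 0.199 to 1.18 CPM in Mac1-, and C5ar2, the second C5a receptor, with a difference of 3.43. The 2 called lower were Ccr2 and Cx3cr1, chemokine receptors of monocytes. Ccr2 had means of 17.4 CPM in P9 and 505 CPM in P10, against 151 and 273 CPM in the Mac1- groups P11 and P12, so it was lower than Mac1- in P9 and higher in P10. Cx3cr1 had the same order, with means of 4.20 CPM in P9 and 201 in P10, and neither gene is shared.

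Receptors for opsonized or microbial particles were called higher in 10 of 15 cases, 4 of them shared, with a median of 1.32. Fcgr4, an activating receptor for IgG, measured 43.5, 54.7 and 65.3 CPM in the P9 libraries, 44.7, 45.6 and 49.1 CPM in those of P10, 5.14, 6.25 and 7.56 CPM in those of P11 and 5.06, 3.60 and 10.01 CPM in those of P12, a log2 difference of 2.96 (SE 0.20, adjusted p = 7.59e-08). P9 and P10 overlapped here too. Trem1, which amplifies inflammatory signals, was at 34.8 to 237 CPM in Mac1+ and 8.70 to 15.8 CPM in Mac1-. The C-type lectins Clec4d and Clec4e, which sense mycobacterial glycolipid, had differences of 3.04 and 1.84. The higher genes that were not shared included the scavenger receptor Msr1 and the efferocytosis receptor Mertk, picked after their values were seen. Msr1 had a mean of 100.0 CPM in P10 and 1.14 CPM in P9, against 4.48 and 11.4 CPM in the Mac1- groups.

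The paired myeloid receptors, families in which inhibitory and activating members sit side by side, had the most shared members of the receptor and adhesion lists. Most are immunoglobulin-like, and the list also holds the C-type lectins Clec4a2 and Clec12a. Of 20 tested, 15 were called higher and 13 were shared, with a median of 2.78. Cd33, a sialic acid-binding lectin, measured 1413, 1547 and 1344 CPM in the P9 libraries, 249, 241 and 182 CPM in those of P10, 38.7, 43.8 and 40.8 CPM in those of P11 and 59.4, 44.2 and 33.9 CPM in those of P12, a log2 difference of 3.70 (SE 0.13, adjusted p = 1.09e-09). Here P12 replicate 3 was the lowest of the Mac1- libraries. Lilr4b had a difference of 3.40, Cd300lf of 3.65 and Cd300ld of 3.04, with all Mac1+ libraries above all Mac1- libraries. Inhibitory and activating members both rose. The inhibitory Pilra had a difference of 2.77, and the activating Pilrb1 and Pilrb2 of 3.38 and 3.58. These 3 and Lair1 were picked after their values were seen. Lair1, an inhibitory collagen receptor, was the 1 member called lower, at −1.01, and had a mean of 10.8 CPM in P9 and 175 CPM in P10. After rescaling it was not called. Members of these families are close in sequence, so the authors' assignment of reads among them is uncertain.

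Granule genes split by granule type. Of 16 genes of secondary and tertiary granules, 14 were called higher and 11 were shared, with a median of 4.91. Of 9 genes of primary granules, 5 were called lower, 2 of them shared, and 2 higher, with a median of −1.33. Ngp, the neutrophilic granule protein, measured 45121, 35758 and 32932 CPM in the P9 libraries, 263, 491 and 4331 CPM in those of P10, 45.9, 57.6 and 165 CPM in those of P11 and 106, 94.8 and 33.5 CPM in those of P12, a log2 difference of 6.25 (SE 0.58, adjusted p = 7.53e-07). Ltf measured 21088, 21809.6 and 20252 CPM in the P9 libraries, 140.1, 211 and 1224 CPM in those of P10, 35.1, 34.9 and 16.1 CPM in those of P11 and 50.7, 64.7 and 16.7 CPM in those of P12, a log2 difference of 6.34 (SE 0.47, adjusted p = 1.38e-07). In both genes P9 was far above P10, and P10 replicate 3 was far above the other P10 libraries. Without P10 replicate 3 the differences were 5.65 for Ngp and 5.87 for Ltf. Lcn2, the siderophore-binding protein lipocalin-2, was more even within P10, at 555, 638 and 1315 CPM, with 9446 to 11871 CPM in P9 and 60.2 to 134 CPM in Mac1-.

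The proteases of the later granules followed. Mmp8 measured 3907, 3861 and 3715 CPM in the P9 libraries, 504, 538 and 306 CPM in those of P10, 61.3, 70.5 and 41.6 CPM in those of P11 and 129, 106 and 186 CPM in those of P12, a log2 difference of 3.87 (SE 0.18, adjusted p = 6.65e-09). Mmp25, a membrane-anchored protease, was at 369.8 to 450.4 CPM in P9, 1.48 to 6.04 CPM in P10 and 0.0995 to 0.957 CPM in Mac1-, and Adam8, a membrane-bound protease, had a difference of 4.73. On the primary granule side Ctsg, cathepsin G, measured 21.1, 24.5 and 51.2 CPM in the P9 libraries, 219, 269 and 303 CPM in those of P10, 799.9, 828 and 1265 CPM in those of P11 and 524, 538 and 472 CPM in those of P12, a log2 difference of −2.96 (SE 0.19, adjusted p = 5.93e-08). Prtn3, proteinase 3, measured 20.6, 20.9 and 53.5 CPM in the P9 libraries, 287, 291 and 288 CPM in those of P10, 622, 514 and 727 CPM in those of P11 and 456, 345 and 387 CPM in those of P12, a log2 difference of −2.43 (SE 0.20, adjusted p = 3.27e-07). P10 lay between P9 and Mac1- in both. Mpo, myeloperoxidase, and Elane, neutrophil elastase, picked after their values were seen, were called lower (−2.95 and −2.22) but not shared. P11 held far more of both than P12, with means of 6281 against 1214 CPM of Mpo.

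The phagocyte oxidase makes superoxide at the phagosome. Of 8 of its genes tested, 5 were called higher and all 5 were shared, with a median of 1.14. Cybb, the catalytic membrane subunit gp91phox, measured 1969, 2157 and 2460.4 CPM in the P9 libraries, 1988, 1972 and 1900.3 CPM in those of P10, 556, 529 and 549.9 CPM in those of P11 and 657, 623 and 1059 CPM in those of P12, a log2 difference of 1.69 (SE 0.13, adjusted p = 1.86e-07). P9 and P10 overlapped for Cybb, whereas Ncf1, the cytosolic organizer p47phox, was at 1967 to 2269 CPM in P9, 450.2 to 628 CPM in P10 and 370.3 to 448 CPM in Mac1-. P10 was above Mac1- by 0.35 on the log2 scale for Ncf1, which was not called in P10 against P11 or P12. Ncf4, another cytosolic subunit, had a difference of 1.22.

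Lysosomal genes showed no common direction. Of 33 tested, 1 was called higher and 6 lower, where 8.02% and 29.0% of all genes were. The list median of −0.09 became 0.21 after rescaling, against −0.52 and −0.25 over all genes. The 1 higher gene was Ctsd, the aspartic protease cathepsin D, at 541 to 649 CPM in Mac1+ and 205 to 404 CPM in Mac1-, and its call was lost without P12 replicate 2, when the difference was 0.99. The 1 shared lower gene was Glb1, acid β-galactosidase, with a difference of −1.43 that came from P9 (−2.50) more than from P10 (−0.36). P9 and P10 parted over this list, with 22 of the 33 genes called lower in P9 than in P10 (17 after rescaling). Over all genes 34.1% were called lower in P9 (25.0% after rescaling). Ctss, cathepsin S, an example picked after its values were seen, had means of 13.6 CPM in P9 and 592 CPM in P10, around 195 and 337 CPM in P11 and P12.

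Of 28 actin and motility genes, 9 were called higher, 8 of them shared, and 1 lower, with a median of 0.77. Gsn, the actin-severing protein gelsolin, was at 401 to 493 CPM in P9, 102 to 150.3 CPM in P10 and 40.9 to 94.8 CPM in Mac1-. Lsp1, a leukocyte actin-binding protein, was at 519 to 724 CPM in Mac1+ and 115 to 379 CPM in Mac1-, with P10 as high as P9. Dock5, an activator of Rac, and Arhgap25, which switches Rac off, had differences of 1.87 and 1.19. Arhgap25 had close replicates, 128, 126 and 129 CPM in P9 and 47.6, 53.2 and 54.8 CPM in P10. Actin itself (Actb, difference 0.97) was not called.

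Of 30 genes of Toll-like receptor, NF-κB and interleukin-1 signalling, 12 were called higher, 9 of them shared, and 1 lower, with a median of 0.76. Shared members included the interleukin-1 system. The decoy receptor Il1r2 and the antagonist Il1rn, which dampen interleukin-1, had differences of 3.42 and 3.91. The cytokine Il1b rose as well, at 10.8 to 15.4 CPM in P9 and 2.02 to 4.25 CPM in P10 against 0 to 0.281 CPM in Mac1-, a level of a few alignments at most. Il1rn measured 92.1, 92.5 and 112 CPM in the P9 libraries, 4.77, 5.91 and 13.7 CPM in those of P10, 0.663, 1.01 and 1.04 CPM in those of P11 and 0.744, 1.91 and 4.46 CPM in those of P12. Cd14, the co-receptor for lipopolysaccharide, was at 13.8 to 68.4 CPM in Mac1+ and 3.50 to 9.43 CPM in Mac1-. The shared Tlr13 and Tlr2, receptors for bacterial ribosomal RNA and lipopeptides, had differences of 2.38 and 1.28, with Tlr13 higher in P10 (2.56) than in P9 (2.20). They were picked after their values were seen.

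Interferon-response genes were called higher in 10 of 19 cases and lower in 2, with a median of 1.12, but only Ifitm3 and Ifitm6 were shared. Ifitm3 measured 212, 199.7 and 228 CPM in the P9 libraries, 279, 330.4 and 455 CPM in those of P10, 36.0, 30.3 and 57.0 CPM in those of P11 and 39.5, 21.3 and 162 CPM in those of P12, a log2 difference of 2.57 (SE 0.37, adjusted p = 3.42e-05). P12 replicate 3 came close to the lowest P9 library. For the other 8 called higher the libraries of the gates overlapped.

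Transcription factors of myeloid differentiation held calls in both directions, where 8.02% of all genes were called higher and 29.0% lower. Of 27 tested, 10 were called higher, 7 of them shared, and 4 lower, with a median of 0.62. Mxd1, the antagonist of Myc named above, measured 1138, 1164 and 1061 CPM in the P9 libraries, 46.5, 50.6 and 56.1 CPM in those of P10, 31.4, 28.0 and 31.2 CPM in those of P11 and 31.0, 35.1 and 33.0 CPM in those of P12, a log2 difference of 2.90 (SE 0.08, adjusted p = 1.12e-10). The Mxd1 libraries of each group were close to one another, and P10 was above Mac1- by only 0.68 on the log2 scale while P9 was above it by 5.13. Egr1, an immediate-early factor, was at 19.3 to 41.5 CPM in P9, 4.38 to 7.11 CPM in P10 and 0.394 to 1.56 CPM in Mac1-. Klf6, a Krüppel-like factor, and Id2, an inhibitor of helix-loop-helix factors, had differences of 1.70 and 1.65, and the libraries of P9 and P10 overlapped for Id2. The factors called lower were Cebpa, Irf8, Klf4 and Zeb2, none of them shared. Irf8, which favours monocytes over neutrophils, had means of 11.1 CPM in P9 and 375 CPM in P10, against 456 and 563 CPM in the Mac1- groups P11 and P12. Spi1 had a difference of 0.83 and was not called.

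**Figure D3:**
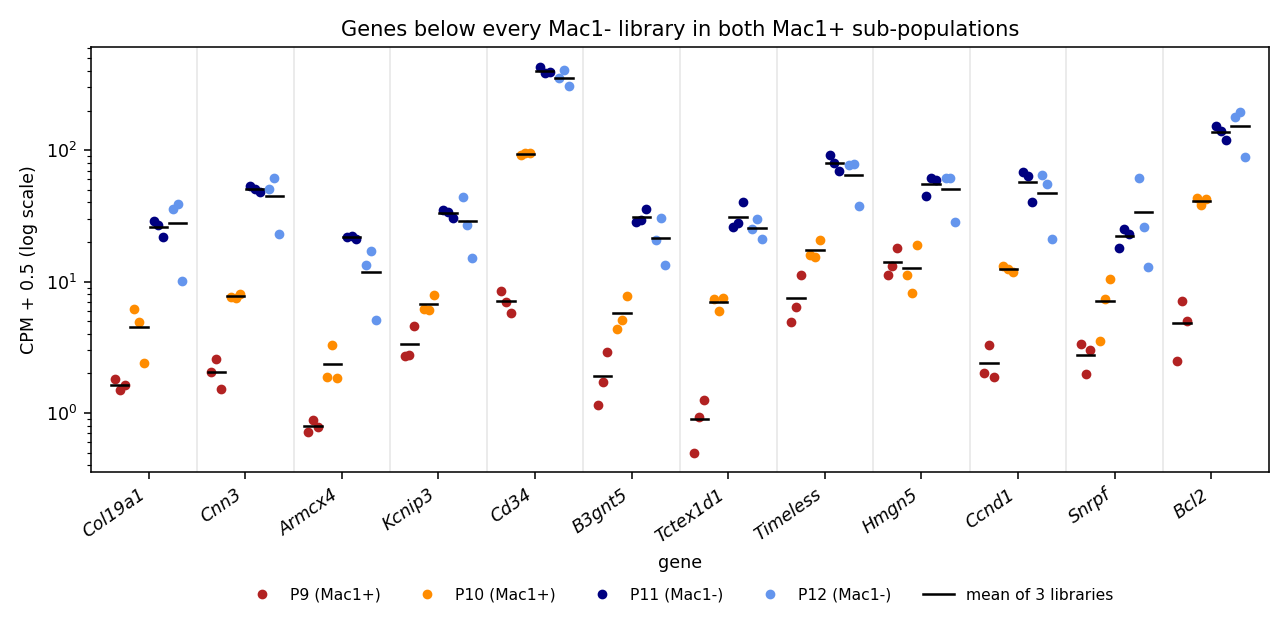
CPM + 0.5 on a log axis for the 12 protein-coding genes with the widest smallest gap among shared lower genes. Points are single libraries, bars the mean of 3. All 6 Mac1+ points of each gene lie below all 6 Mac1- points. P9 is the lowest group for 11 of the 12 genes, Hmgn5 being the exception, and P12 replicate 3 is the lowest Mac1- point for every gene shown.

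Cd34 was among the 12 shared lower genes with the widest gaps. This surface sialomucin of stem and progenitor cells measured 7.99, 6.49 and 5.22 CPM in the P9 libraries, 91.9, 95.2 and 94.3 CPM in those of P10, 431, 383 and 392 CPM in those of P11 and 354, 406 and 305 CPM in those of P12, a log2 difference of −3.88 (SE 0.10, adjusted p = 1.12e-10). Libraries of each group were tight, and the 4 groups did not overlap except P11 with P12. Bcl2, which blocks apoptosis, measured 1.97, 6.60 and 4.49 CPM in the P9 libraries, 42.4, 37.5 and 41.7 CPM in those of P10, 153, 139.6 and 119 CPM in those of P11 and 177, 194 and 88.7 CPM in those of P12, a log2 difference of −3.39 (SE 0.24, adjusted p = 1.02e-07). Ccnd1, cyclin D1, measured 1.52, 2.78 and 1.37 CPM in the P9 libraries, 12.7, 11.9 and 11.3 CPM in those of P10, 67.7, 63.1 and 39.5 CPM in those of P11 and 64.6, 55.1 and 20.7 CPM in those of P12, a log2 difference of −3.18 (SE 0.26, adjusted p = 3.00e-07). In both of them P9 held a few CPM and P10 lay between P9 and the lowest Mac1- library, which was P12 replicate 3.

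Others of the widest gaps were genes of structure, chromatin and RNA. Cnn3, the actin-binding calponin 3, was at 1.01 to 7.56 CPM in Mac1+ and 22.7 to 61.4 CPM in Mac1-, and Armcx4 at 0.220 to 2.82 and 4.57 to 21.8 CPM. Timeless, which protects replication forks, was at 4.40 to 20.1 CPM in Mac1+ and 37.4 to 91.8 CPM in Mac1-. Hmgn5, a nucleosome-binding protein, had P9 and P10 alike, at 10.8 to 17.5 and 7.67 to 18.4 CPM, against 27.7 to 61.3 CPM in Mac1-. The collagen gene Col19a1 had a difference of −3.25, the calcium sensor Kcnip3 of −2.66, the glycosyltransferase B3gnt5 of −2.99, Tctex1d1 of −3.52 and the spliceosomal Snrpf of −2.55.

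Of 32 stem and progenitor genes, 20 passed the filter on low values, and 11 of these were called lower, 6 of them shared, and 1 higher, with a median of −1.32. Myc measured 6.74, 6.22 and 8.59 CPM in the P9 libraries, 38.0, 40.6 and 52.7 CPM in those of P10, 148, 152 and 179 CPM in those of P11 and 122, 89.5 and 66.5 CPM in those of P12, a log2 difference of −2.72 (SE 0.15, adjusted p = 1.69e-08). Myb, a factor of immature cells, measured 94.8, 107 and 140.4 CPM in the P9 libraries, 235, 235 and 254 CPM in those of P10, 579, 623 and 749 CPM in those of P11 and 466, 492 and 375 CPM in those of P12, a log2 difference of −1.69 (SE 0.11, adjusted p = 6.55e-08). Gata2 fell to under 1 CPM in P9 and measured 3.19 to 8.11 CPM in P10 and 13.1 to 21.3 CPM in Mac1-. Of the factors used to make the line, Meis1 measured 247, 242 and 102 CPM in the P9 libraries, 481, 554 and 404 CPM in those of P10, 756, 819 and 820.2 CPM in those of P11 and 764, 829.5 and 591 CPM in those of P12, a log2 difference of −1.36 (SE 0.20, adjusted p = 3.46e-05). In P10 Meis1 was at −0.67 against Mac1- and was not called against P11 or P12. The values do not separate the transgene from the gene of the cell. Hoxa9 was lower (−1.78) but not shared, since P12 replicate 3 was at 1.79 CPM, and Hoxb5 was not analysed here. Cd84, a receptor of the SLAM family whose protein the study stained, went the other way, at 253 to 340.4 CPM in Mac1+ and 91.7 to 189 CPM in Mac1-.

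Genes of DNA replication and of mitosis were lower in both Mac1+ groups. Of 48 replication genes 46 were called lower and all 46 were shared, with a median of −1.86, and the other 2, Rfc1 and Rfc2, missed the fold threshold. All 26 mitotic genes tested were called lower and 23 were shared, with a median of −1.43. After rescaling 44 and 20 were called lower. Mcm3, of the replicative helicase, measured 16.8, 18.2 and 34.3 CPM in the P9 libraries, 53.9, 62.7 and 73.4 CPM in those of P10, 259.5, 211 and 236 CPM in those of P11 and 198, 189 and 134 CPM in those of P12, a log2 difference of −2.41 (SE 0.17, adjusted p = 8.96e-08). Pole, the catalytic subunit of DNA polymerase ε, had a difference of −2.18 and Pold2, of polymerase δ, of −2.22. Among mitotic genes Aurkb, the kinase aurora B, had one of −1.54 and Bub1b, of the spindle checkpoint, of −1.62.

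The 2 sets parted when P9 was set directly against P10. Of the replication genes 23 of 48 were called lower in P9 than in P10, whereas of the mitotic genes none was, and 1 of 26, Ube2c, was called higher. At an unadjusted p under 0.05 in limma 1 mitotic gene was lower in P9 and 5 were higher. After rescaling, 15 replication genes were lower in P9, and 2 mitotic genes were higher. Over all genes the shares called lower in P9 were 34.1% as deposited and 25.0% after rescaling. Cdc20, which activates the anaphase-promoting complex, measured 22.9, 18.9 and 26.7 CPM in the P9 libraries, 13.8, 14.1 and 21.7 CPM in those of P10, 68.8, 49.8 and 70.7 CPM in those of P11 and 44.4, 47.0 and 43.1 CPM in those of P12, a log2 difference of −1.44 (SE 0.14, adjusted p = 1.16e-06), and the libraries of P9 and P10 overlapped. Kif23, a kinesin of cytokinesis, was at 34.8, 28.4 and 50.2 CPM in P9 and 27.8, 24.6 and 35.2 CPM in P10, against 75.5 to 84.7 CPM in Mac1-. After rescaling its difference was −0.95 and no longer more than 2-fold.

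Genes that supply protein synthesis and biosynthesis were also lower, more so in P9. Of 39 genes of ribosome biogenesis and RNA polymerase I, 33 were called lower and 29 were shared, with a median of −1.99. Nop56, of the box C/D particles that methylate ribosomal RNA, measured 5.42, 8.76 and 8.56 CPM in the P9 libraries, 51.8, 58.8 and 46.5 CPM in those of P10, 174, 175 and 154 CPM in those of P11 and 127, 139 and 84.9 CPM in those of P12, a log2 difference of −2.77 (SE 0.14, adjusted p = 1.41e-08). Gnl3, nucleostemin, was at 1.76 to 3.70 CPM in P9, 18.2 to 19.7 CPM in P10 and 32.9 to 78.4 CPM in Mac1-. Noc2l and Nop16, both nucleolar, had differences of −2.25 and −2.27. In these 4 genes P10 lay between, and 32 of the 39 were called lower in P9 than in P10 (30 after rescaling). Over all genes 34.1% were called lower in P9 (25.0% after rescaling).

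Of 25 genes of serine, one-carbon and nucleotide synthesis, 24 were called lower and 19 were shared, with a median of −2.31. Shmt2, which makes one-carbon units from serine in mitochondria, measured 6.59, 6.16 and 5.84 CPM in the P9 libraries, 29.0, 34.2 and 31.6 CPM in those of P10, 148, 123 and 128 CPM in those of P11 and 104, 85.8 and 63.4 CPM in those of P12, a log2 difference of −2.85 (SE 0.12, adjusted p = 3.58e-09). Cad, the enzyme of the first steps of pyrimidine synthesis, measured 7.18, 6.22 and 10.8 CPM in the P9 libraries, 47.2, 49.7 and 43.0 CPM in those of P10, 205, 154 and 163 CPM in those of P11 and 112, 101 and 76.5 CPM in those of P12, a log2 difference of −2.70 (SE 0.14, adjusted p = 1.41e-08). Uck2, a uridine-cytidine kinase, and Mthfd1l, a mitochondrial folate enzyme, had differences of −3.05 and −2.38. The 1 gene of the list not called was Mthfd2, at −0.55. In P9 against P10 23 of the 25 were called lower (19 after rescaling), against 34.1% of all genes (25.0% after rescaling).

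Of 20 aminoacyl-tRNA synthetases, 12 were called lower and all 12 were shared, with a median of −1.28. Kars, for lysine, was at 22.7 to 22.8 CPM in P9, 51.0 to 63.7 CPM in P10 and 80.9 to 137 CPM in Mac1-, and Eprs, Vars and Tars had differences of −1.80, −1.66 and −1.54. Of 22 genes of mitochondrial import and chaperones 20 were called lower and 11 were shared, with a median of −1.53. C1qbp, a mitochondrial matrix protein, was at 2.93 to 3.19 CPM in P9, 24.0 to 25.9 CPM in P10 and 37.2 to 89.9 CPM in Mac1-, and Hspa9, the mitochondrial Hsp70, had a difference of −2.30. Trap1 and Phb2 had differences of −2.05 and −1.44. All 8 subunits of the cytosolic chaperonin, which folds actin and tubulin, were called lower, 7 of them shared, with a median of −1.46, and Cct3 led with −1.98. Cct2, Cct5 and Cct6a had differences of −1.42, −1.50 and −1.78.

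**Figure D4:**
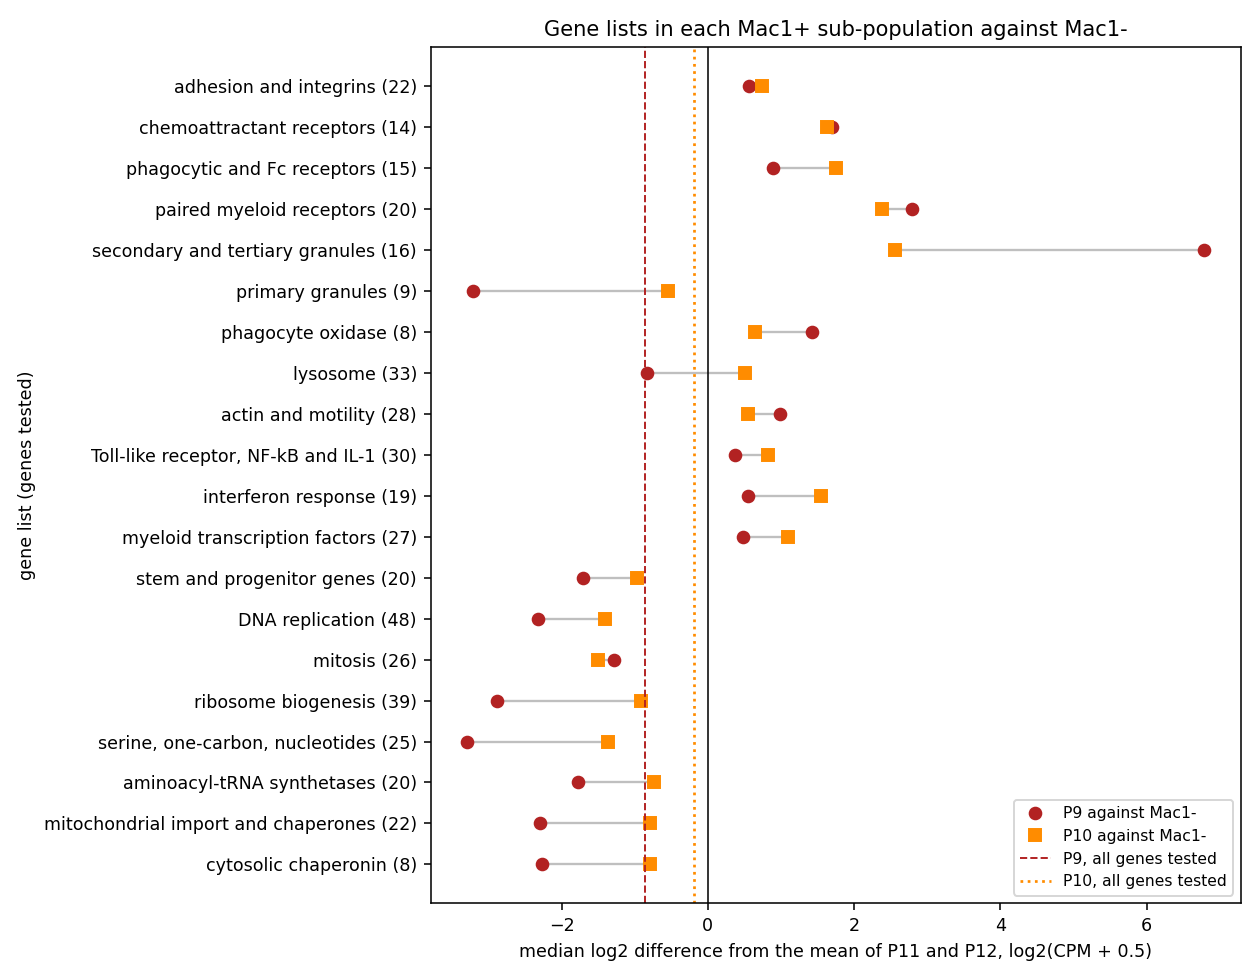
Median log2 difference from Mac1- of the tested members of each of 20 gene lists, for P9 (circles) and P10 (squares), with the medians over all genes tested (P9 −0.86, P10 −0.19) as a dashed and a dotted line. P9 and P10 share the Mac1- libraries. Secondary and tertiary granules stand out at the right in P9, lysosomal genes fall on both sides of 0, and mitosis is the one growth list in which P10 (−1.50) is at or below P9 (−1.29).

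**Figure D5:**
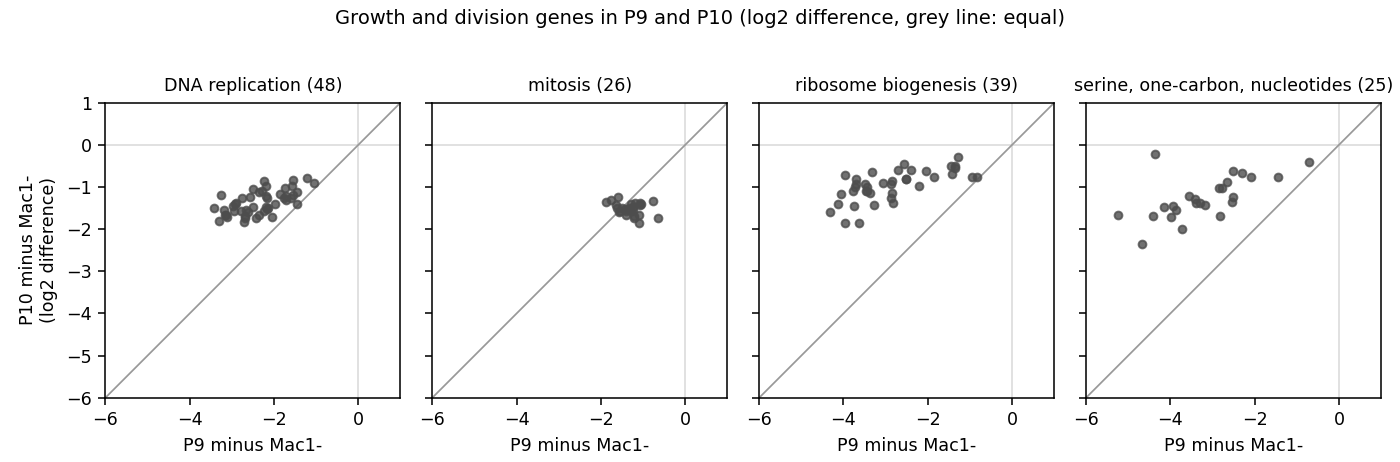
Log2 difference from Mac1- of each gene in P9 (x axis) and P10 (y axis) for 4 lists, with the grey line marking equal differences. Genes of ribosome biogenesis and of serine, one-carbon and nucleotide synthesis lie mostly above the line, lower in P9 than in P10. Mitotic genes lie around the line. Both axes use the same P11 and P12 libraries.

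Of 354 lincRNA genes tested, 16 were shared higher (4.52%, against 3.70% of all genes tested) and 33 shared lower (9.32%, against 16.8%). Whether reads were counted by strand is not given in the sources used here, so reads of overlapping or antisense genes may not be told apart. F730016J06Rik was at 4.49 to 24.0 CPM in Mac1+ and 0 to 2.55 CPM in Mac1-, and AC160336.1 at 29.6 to 69.1 and 7.80 to 12.5 CPM. Gm39556 had a difference of 2.56. Of the lower ones 4933404O12Rik was at 2.64 to 9.91 CPM in Mac1+ and 16.8 to 39.2 CPM in Mac1-, and 4930444F02Rik and AC102496.1 had differences of −2.33 and −1.32. The gates all but met for 4930444F02Rik, at up to 2.137 CPM in Mac1+ and from 2.141 CPM in Mac1-. That gap is under the worth of 1 alignment, so its shared status is uncertain. In AC102496.1 P9 and P10 were alike.

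Along the chromosomes, 91 of the 450 shared higher protein-coding genes (20.2%) had another one as the next tested protein-coding gene on either side. Of all tested protein-coding genes 3.96% are of this kind. A neighbour on either side counted, so the share due to chance is larger than that and was not computed. In all, 9 runs of 3 were found. Genes in such runs are often copies of one another, so their reads may be split between them. One run on chromosome 7 (128062640 to 128150657, mm10) holds Itgam, Gm49368 and Itgax. Others hold Ifitm1, Ifitm3 and Ifitm6, Slfn2, Slfn1 and Slfn4, Pilra, Pilrb1 and Pilrb2, and the chitinase-like Chit1 and Chil1 beside Btg2. Of the shared lower genes 39.0% had such a neighbour on either side, and 18.8% of tested genes are of that kind. The same limit holds, so no excess is read from these shares. The runs were looked for after the values were seen.

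Markers of other cell types moved with the gates in part, and their part in the results above was not tested. All 11 markers of mature neutrophils were called higher, 7 of them shared, with a summed level of 1548 to 119299 CPM in Mac1+ and 335 to 851 CPM in Mac1-. Ly6g, the defining one, was at 293 to 433 CPM in P9, 2.80 to 9.01 CPM in P10 and 0.223 to 1.52 CPM in Mac1-. Of 11 monocyte and macrophage markers 2 were called higher, 1 of them shared, and 6 lower, with summed levels of 1056 to 7879 CPM in Mac1+ and 4256 to 7643 CPM in Mac1-. All 11 were called lower in P9 than in P10 (10 after rescaling), against 34.1% of all genes (25.0% after rescaling). The list median was −3.18 in P9 and 1.23 in P10. Csf1r, the receptor that defines this lineage, had means of 26.4 CPM in P9 and 842 CPM in P10, against 289.9 and 467 CPM in the Mac1- groups P11 and P12.

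Marker lists of other lineages summed to at most 499 CPM in any library. The 7 T and NK cell markers with values were under 1 CPM in every library. Of B cell markers Ighm and Cd79b were shared lower (−2.49 and −1.04), while Cd79a and Vpreb1 were under 1 CPM throughout, and the list summed to 25.4 to 253 CPM in Mac1+ and 286 to 499 CPM in Mac1-. Hemoglobin and other erythroid mRNAs summed to 86.7 to 229 CPM in Mac1+ and 49.3 to 68.0 CPM in Mac1-. Of the 6 tested 2 were called higher, Hbb-bs being shared (1.11), and 5 of the 6 after rescaling. The remaining lists had 2 or 3 members tested. Stromal and endothelial markers held the shared lower Pecam1 (−2.44) and the shared higher Col1a1 (2.46), and summed to 22.5 to 109 CPM in Mac1+ and 163 to 227 CPM in Mac1-. One megakaryocyte marker was called higher, one basophil or mast cell marker lower and one dendritic cell marker lower, none of them shared, and these 3 lists summed to at most 16.3 CPM in any library.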

How the data were processed

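PolyA-based RNA-seq libraries were made from 100 sorted ML23 cells each with 14 cycles of cDNA amplification per the labels, whereas the study's methods name a directional kit, and the use of strand in counting is not given in the sources used here. The authors deposited CPM per gene, with 0.0001 added, for mm10, and STAR 2.5.3a and Partek are among the tools in the submitters' processing notes. These CPM are not whole reads, so no count model was used. The 0.0001 was subtracted, and the 13450 of 20202 genes at 1 CPM or more in 3 libraries were tested in limma 3.58.1 (R 4.3.3) on log2(CPM + 0.5), with a mean per sub-population and a mean-variance trend, adjusted by Benjamini-Hochberg. Calls used adjusted p under 0.1 and more than 2-fold. The fits were tested on simulated data. The members and the 20 gene and 9 marker lists were chosen with earlier results of these data known. Named genes were the 12 shared protein-coding genes per direction with the widest smallest gap at 10 CPM or more, up to 4 shared members per list by adjusted p (2 members by adjusted p where fewer were shared), the sort, stain and line genes, and 3 lincRNAs per direction at 5 CPM or more. Alternatives changed the pseudocount (0.1, 2), filter (none, 10 CPM), scaling, block, grouping, adjusted p (0.05), fold, gene types and libraries. Some genes of the lists are not reported here by name.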

Additional observations from a re-analysis of the deposited data

Results flagged for a closer look

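Of 58 sets of 6 libraries over 29 genes, 11 held a library far from the other 5 by Dixon's test (critical value 0.625). In 10 of them this was P12 replicate 3, without which 639 genes were shared higher and 2742 shared lower. Why it lay apart was not tested. All 11 were sets of Mac1- libraries. The usual chance rate of about 1 in 20 assumes independent normal values. These sets hold skewed CPM, pool sub-populations and reuse the same libraries, so that rate does not apply and no excess is read from the count. Among genes higher in Mac1+ it measured 31.4 CPM of Thbs1 (other Mac1- libraries 9.66 to 13.5), 6.02 of C5ar1 (1.80 to 2.98), 12.8 of Fpr2 (1.55 to 4.54) and 29.6 of Plbd1 (5.21 to 11.8). It also measured 34.0 CPM of Fgr (6.42 to 14.1), 10.7 of Bst1 (2.08 to 2.69), 26.2 of Ifitm6 (7.43 to 9.96) and 2.84 of Trib1 (0.338 to 1.19). The sort marker Itgam was at 538 CPM (124 to 183), and Cnn3, lower in Mac1+, at 22.7 CPM (47.9 to 61.4). The other library was P12 replicate 1, with 61.2 CPM of Snrpf (12.4 to 25.7).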

How the results depend on the processing

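After rescaling, 803 genes were shared higher and 1384 shared lower. Without replicate 3 of every sub-population 765 were shared higher. When a call in all 4 pairs of sub-populations was asked for, 317 and 669 genes were left. Leaving out 1 library at a time gave 919 to 1135 genes higher, 3765 to 4084 lower, 474 to 639 shared higher and 2182 to 2742 shared lower. The lysosome median turned from −0.09 to 0.21 after rescaling and to 0.087 with the arithmetic fold, which also turned Kit to −0.025, and the cause was not tested. Of the 104 named genes called, 101 kept their call in all 23 settings, the others being Kif23 (−0.95 after rescaling), Cd48 (−0.59 with the arithmetic fold) and Ctsd (0.99 without P12 replicate 2). This counts calls and not shared status. After rescaling 1382 of the 2254 shared lower genes were still shared, and Meis1 was not among them. With the replicate number as a block 1082 genes were higher, 3902 lower, 498 shared higher and 2254 shared lower. Libraries of different sub-populations may share 1 of the 3 mice, but the labels do not say that a replicate number marks a mouse. Of 18 correlations between same-numbered libraries (−0.016 to 0.527), 12 were over 0.1, all 3 of P10 with P11 among them, and 10 of 12 libraries correlated best with their own number, a hint of pairing from the data and not from the design. The other 6 correlations were at or under 0.1. The main fit did not use the numbers as pairs because the labels do not give them that meaning. Depth limits genes near 1 CPM, and 3 libraries per sub-population of 1 line limit the rest.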
